A study of Mus musculus with 2 samples.

Results

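The replication and mitosis genes are a set of 42 genes that dividing cells transcribe, 18 of the S-phase and 24 of mitosis, followed here through the cell clusters of the embryonic mouse coronal suture, the joint between the frontal and parietal bones of the skull. They are a list of names, drawn up with earlier results of these data known but without a threshold on a measured value, and all 42 were found among the 31053 genes listed at E15.5 and among the 27998 listed at E17.5. Both samples were coronal sutures of wild type C57/BL6 embryos, without a transgene or treatment. At E15.5, 10 pooled sutures were digested with Collagenase II and Dispase and dead cells were removed with a kit. At E17.5, 16 sutures from 2 litters were digested with Collagenase IV in 3 batches, each sorted apart to remove debris, doublets and likely dead cells and made into a library of its own. E15.5 is thus 1 library of pooled embryos and E17.5 is 3 libraries deposited as 1 sample, and stage, enzyme and sorting cannot be told apart.

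The cells carry the labels of the study: 4 osteogenic clusters (OG1 to OG4), a pair called proliferative osteogenic (PO1 and PO2), 4 ectocranial clusters (EC1 to EC4) from the layers above the suture, a ligament-like cluster (LIG) and 4 meningeal clusters (MG1 to MG4) from below it. Of the labelled cells, 5335 of 5340 were found in the E15.5 matrix, at a median of 8510 unique molecular identifiers (UMIs, each a counted RNA molecule), and 6830 of 6830 in the E17.5 matrix, at a median of 12302. In the table of cells the E15.5 median was 11513, and 0 of its cells had the same total as in the matrix, whereas all 6830 did at E17.5. The E15.5 matrix header also names a later Cell Ranger version than the methods of the study, so the counts of the 2 stages may come from different count runs. The E17.5 matrix joins 3 barcode suffixes of 1234, 2770 and 2826 labelled cells, taken here as its 3 libraries (libraries 1 to 3 below). Which of them is which batch is not given in the sources used here, and a pair of them shares a litter. Between 5 and 19 barcodes were shared between E15.5 and any E17.5 library, and 5 to 13 between the libraries of E17.5. Summed RNA of 5 erythroid markers, per 1000000 UMIs (CPM), was 9371 in PO1 and 10943 in the other labelled cells at E15.5, against 490.9 and 550.6 at E17.5.

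A cell that divides first copies its DNA in S phase and then separates the copies in mitosis. Entry into S phase depends on cyclin E and on loading of the MCM helicase at replication origins, with a supply of deoxynucleotides; entry into mitosis depends on Cdk1 with cyclins A and B, and exit on the anaphase-promoting complex (APC/C), which marks cyclin B for destruction. Many S-phase genes are controlled by E2F factors, and many mitotic genes by complexes that act through CCAAT boxes and the cell cycle genes homology region (CHR). In the growing skull, dividing osteoprogenitors at the suture supply new bone-forming cells.

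Sequence upstream of 35 of the 42 genes, 14 of the S-phase and 21 of mitosis, was matched in RefSeq (GRCm38.p6), and both strands of the 250 bases before each start were searched for 3 motifs, since members that move together may share letters there. The missing genes were Ccne2, Mcm4, Gins2, Esco2, Ccna2, Aurkb and Tpx2. An E2F site, spelled TTTCCCGC, TTTGGCGC, TTTCGCGC or TTTGCCGC, stood in 5 of 14 S-phase promoters (Cdc6, Mcm5, Mcm6, Mcm7 and Hells), in 1 of 21 mitotic promoters (Cdk1) and in 1.91% of all 27025 promoters. A CCAAT box stood in 10 of 14 and 19 of 21, against 34.5% of all promoters, and at least 2 of them in 5 of 14 and 13 of 21, against 10.5%. The CHR, spelled TTTGAA or TTCGAA, stood in 3 of 14 and 8 of 21, against 17.4%. In the last 60 bases before the start, a window added after the motif list was fixed, it stood in 0 of 14 and 5 of 21 (Cdk1, Cdc20, Ube2c, Kif11 and Top2a), against 3.39%. The motifs were not tested for use in these cells.

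Below are the 160 bases before the start of 6 members, with the motifs found in capitals. Mcm5 and Mcm6 are shown as helicase genes with E2F sites, Rrm1 as an S-phase gene without one, Top2a and Kif11 as mitotic genes with a CHR near the start, and Ccnb2 as a mitotic gene with 3 CCAAT boxes, whose CHR lies 167 bases before the start and so outside the bases shown; overlapping matches run together as 1 stretch of capitals.
Mcm5 (chr8:75109349-75109508, plus strand): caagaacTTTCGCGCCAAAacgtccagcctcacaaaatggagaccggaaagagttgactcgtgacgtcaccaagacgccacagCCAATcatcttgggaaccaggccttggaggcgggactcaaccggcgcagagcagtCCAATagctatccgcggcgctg
Mcm6 (chr1:128359706-128359865, minus strand): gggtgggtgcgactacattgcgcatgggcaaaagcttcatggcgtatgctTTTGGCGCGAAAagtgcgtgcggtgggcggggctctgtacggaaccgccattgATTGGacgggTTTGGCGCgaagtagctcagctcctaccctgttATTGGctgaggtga
Rrm1 (chr7:102441535-102441694, plus strand): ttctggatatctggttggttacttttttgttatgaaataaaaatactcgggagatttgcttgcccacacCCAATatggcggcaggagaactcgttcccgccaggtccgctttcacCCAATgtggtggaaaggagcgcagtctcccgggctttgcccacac
Top2a (chr11:99024190-99024349, minus strand): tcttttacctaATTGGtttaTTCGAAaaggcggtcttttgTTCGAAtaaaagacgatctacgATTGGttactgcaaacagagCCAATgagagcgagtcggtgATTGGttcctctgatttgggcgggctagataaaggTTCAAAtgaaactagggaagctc
Kif11 (chr19:37376222-37376381, plus strand): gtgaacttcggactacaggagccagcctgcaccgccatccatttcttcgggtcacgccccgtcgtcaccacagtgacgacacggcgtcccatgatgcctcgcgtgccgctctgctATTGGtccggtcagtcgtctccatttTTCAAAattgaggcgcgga
Ccnb2 (chr9:70421555-70421714, minus strand): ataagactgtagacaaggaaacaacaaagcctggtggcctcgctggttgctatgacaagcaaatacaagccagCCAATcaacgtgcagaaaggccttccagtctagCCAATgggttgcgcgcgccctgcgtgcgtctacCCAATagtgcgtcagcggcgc

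PO1 was high in both gene sets, and PO2 was high in the mitotic set and not in the S-phase set. Levels are given in CPM, the UMIs of a gene or set per 1000000 UMIs of the cells summed, with the 95% interval that counting alone allows (exact Poisson for levels, exact binomial for ratios); with 1 library at E15.5 no test between stages was possible, and for E17.5 the values of its 3 libraries are given. The S-phase set stood at 2455 (2387 to 2524) CPM in the 173 PO1 cells at E15.5 and at 2070 in the 363 PO1 cells at E17.5, which is 3.92-fold (3.804 to 4.04) and 3.26-fold (3.201 to 3.32) the level of all other labelled cells. In the 3 libraries of E17.5 it was 2137, 2093 and 2030 CPM. The mitotic set stood at 6033 (5927 to 6140) and 4971 CPM, 6.27-fold (6.15 to 6.40) and 3.94-fold (3.90 to 3.99), with 4592, 5037 and 5013 CPM in the 3 libraries. In PO2, with 35 and 76 cells, the mitotic set reached 13839 (13509 to 14174) and 11621 CPM, 13.2-fold (12.9 to 13.6) and 8.46-fold (8.34 to 8.60) the other labelled cells. The S-phase set in PO2 stood at 650.6 (580.7 to 726.6) and 764.4 CPM, or 0.925-fold (0.825 to 1.03) and 1.02-fold (0.966 to 1.08), both intervals including no difference. The 3 libraries gave 11435, 11781 and 11549 CPM for the mitotic set in PO2 and 786.4, 771.3 and 753.4 for the S-phase set, a spread far smaller than the gap between PO1 and PO2. The clusters were drawn by the study on these same cells, after regression of cell cycle scores, so the differences between clusters are a description.

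The balance of both sets set PO2 apart from every other cluster. PO2 held 21.3 (19.0 to 23.9) mitotic UMIs per S-phase UMI at E15.5, then 15.2 (14.4 to 16.1) at E17.5, whereas PO1 held 2.46 (2.38 to 2.54) and 2.40 (2.36 to 2.45). The ratio in PO2 was 8.65-fold (7.69 to 9.74) and 6.33-fold (5.96 to 6.73) that of PO1. Each of the 3 libraries of E17.5 gave much the same ratio, between 14.5 and 15.3 in PO2 and between 2.15 and 2.47 in PO1. Among the other 13 clusters it ran from 0.782 in EC2 to 2.94 in OG4 at E15.5, and from 1.06 in MG3 to 2.70 in OG4 at E17.5.

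The 13 other clusters lay below PO1 for the S-phase set, and below PO1 and PO2 for the mitotic set, at both stages. For the S-phase set the highest was OG2 at both stages, with 1085 and 878.0 CPM; the lowest was OG4 at E15.5, with 176.3, and MG3 at E17.5, with 300.4. For the mitotic set the highest was OG3 at E15.5, with 1490, and OG2 at E17.5, with 1993; the lowest was OG4, with 517.8, and MG3, with 317.5. Ordered by level, 9 of the 14 neighbouring pairs of clusters had overlapping intervals for the S-phase set at E15.5, then 9 at E17.5. For the mitotic set it was 7 and 4. Among them were EC2 and OG4 at the low end for the mitotic set at E15.5. For the S-phase set at E17.5, EC3 overlapped MG2 and also MG3, while MG2 and MG3 did not overlap each other. The order within such pairs is not taken as settled. Because PO1 and PO2 are small, most mitotic RNA was elsewhere: they were 3.90% and 6.43% of labelled cells and held 33.3% and 38.2% of mitotic UMIs and 15.6% and 23.5% of S-phase UMIs.

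**Figure D1:**
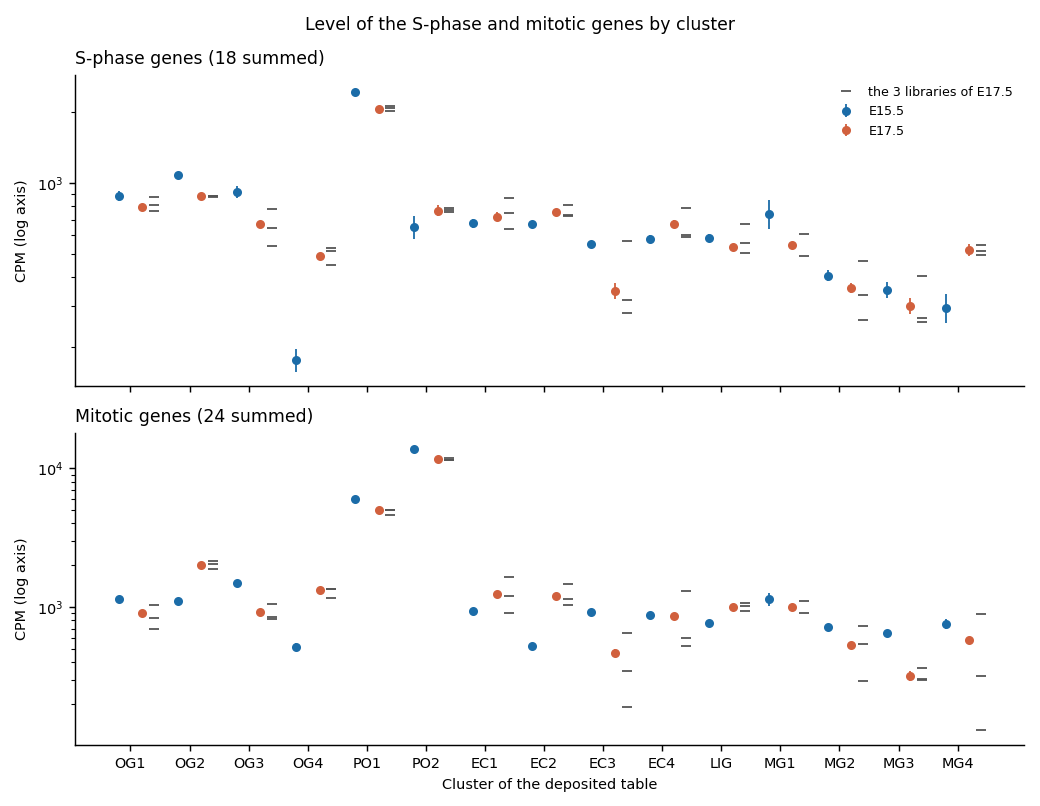
Level of the S-phase and mitotic sets in CPM (log axis) in each of the 15 labelled clusters, at E15.5 and E17.5, with bars for the 95% counting interval and small ticks for the 3 libraries of E17.5. PO1 is highest for the S-phase set (2455 and 2070 CPM) and PO2 for the mitotic set (13839 and 11621 CPM), while PO2 lies among the other clusters for the S-phase set.

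The osteogenic label of both clusters was checked against 10 osteogenic markers. Their summed level was 141.5 CPM in PO1 and 175.6 in PO2 at E15.5, below the 258.0 of the other labelled cells, with 0 of 10 at 0 UMIs in PO1 and 3 of 10 in PO2. At E17.5 it was 710.1 and 642.2, against 857.5 in the other labelled cells, with 0 of 10 at 0. OG2 had 204.8 and 610.2, above both clusters at E15.5 and below both at E17.5. OG1 had 214.8 and 586.6. OG1 and OG2, which the study labels osteogenic, thus also lay below the other labelled cells at both stages. In those other cells 1 marker alone gave 139.0 of the 258.0 CPM at E15.5 and 451.1 of the 857.5 at E17.5. The summed level therefore cannot decide for or against the label. Chondrocyte markers at E15.5 summed to 277.6 in PO1 and 179.7 in PO2, against 306.4 in the other labelled cells. Osteoclast markers summed to 157.2 and 171.4, against 235.8. Neuronal markers were at 0 UMIs for 4 of 4 genes in PO1 and PO2 at E15.5 and summed to 2.48 and 2.47 CPM at E17.5, against 2.86 in the other labelled cells.

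Gene by gene, a member was counted as higher when its level was at least 2-fold that of all other labelled cells at both stages, among 12150 genes with at least 50 UMIs at each. All 42 members passed that minimum. In PO1, 15 of 18 S-phase and 23 of 24 mitotic members were higher, where 3.96% of all genes were. The exceptions were Mcm2, Mcm4, Mcm6 and Cenpa. In PO2, 24 of 24 mitotic members and 1 of 18 S-phase members (Esco2) were higher, where 3.05% of all genes were, and 7 of 18 S-phase members were at least 2-fold lower (Ccne1, Ccne2, Cdc6, Mcm2, Mcm3, Mcm6 and Hells), where 8.56% of all genes were. The median fold of S-phase members was 3.40 and 2.69 in PO1, and 0.557 and 0.677 in PO2. The median fold of mitotic members was 6.603 and 4.16 in PO1, and 11.6 and 7.68 in PO2. Over all 12150 genes the medians lay between 0.956 and 0.981. Within each of the 3 libraries of E17.5, 13 of 18 S-phase and 22 of 24 mitotic members were at least 2-fold in PO1 (Cdc6, Mcm3 and Ccnb2 also missed the limit in at least 1). In PO2 it was 24 of 24 mitotic and 0 of 18 S-phase members, and 4 S-phase members were at least 2-fold lower in each library (Ccne2, Cdc6, Mcm6 and Hells).

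**Figure D2:**
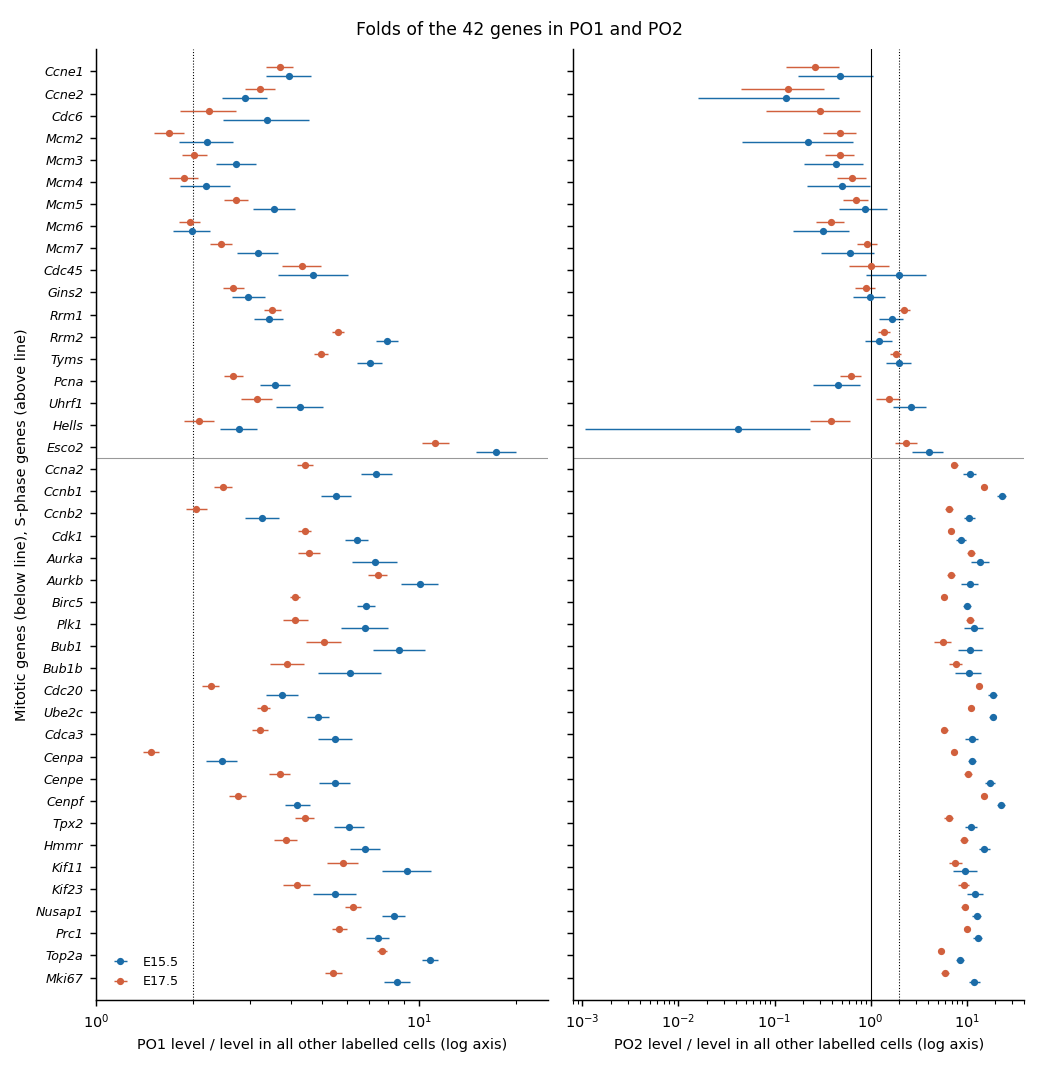
Fold of each of the 42 members in PO1 and in PO2 over all other labelled cells (log axis), at E15.5 and E17.5, with 95% counting intervals and a line at the 2-fold limit. All 24 mitotic members lie right of that line in PO2, where most S-phase members lie near or below 1; Cdc6 had 0 UMIs in PO2 at E15.5 and has no point there.

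Among the genes that start replication, Ccne1, which encodes cyclin E1 and drives entry into S phase (chr7:38097984-38107534), stood at 89.6 and 78.3 CPM in PO1 and at 12.4 and 6.79 in PO2. Its fold over the other labelled cells was 3.94 (3.35 to 4.62) and 3.70 (3.36 to 4.07) in PO1, against 0.483 (0.177 to 1.05) and 0.262 (0.130 to 0.469) in PO2. Ccne2, the other cyclin E, was alike, with folds of 2.89 and 3.22 in PO1 and of 0.131 and 0.138 in PO2. Cdc6, which loads the helicase at origins and had the lowest level of the S-phase set, with 8.11 and 8.12 CPM over labelled cells, reached 24.97 and 16.5 CPM in PO1. In PO2 it had 0 UMIs at E15.5, which allows up to 7.62 CPM, and 4 UMIs at E17.5. All of this initiation group was high in PO1 and low in PO2.

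The replicative helicase opens the DNA ahead of the fork and is built from Mcm2 to Mcm7 with Cdc45 and the GINS complex. In PO1, 5 of these 8 genes passed the 2-fold limit, and Mcm2, Mcm4 and Mcm6 missed it at 1 or both stages. Mcm2 stood at 57.3 and 56.7 CPM in PO1, a fold of 2.20 (1.80 to 2.66) and 1.68 (1.51 to 1.86). Mcm4 stood at 68.1 and 58.5 CPM, a fold of 2.18 (1.82 to 2.60) and 1.87 (1.68 to 2.07). Mcm6 stood at 120.5 and 110.0 CPM, a fold of 1.98 (1.73 to 2.25) and 1.95 (1.81 to 2.103). Their intervals reach past 2 in most of these cases, so they lie at the limit rather than far from it. In PO2 the same 3 genes were below the other cells, with folds of 0.225 and 0.483 for Mcm2, 0.502 and 0.643 for Mcm4 and 0.324 and 0.383 for Mcm6. OG2 had more Mcm6 than any other cluster outside PO1 at E15.5, with 96.0 CPM, and EC2 at E17.5, with 80.0.

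Mcm3 (chr1:20802968-20820312) stood at 106.3 and 77.9 CPM in PO1 and at 18.6 and 20.4 in PO2, and Mcm7 (chr5:138164583-138172422) at 107.2 and 107.4 in PO1 and at 22.7 and 45.7 in PO2. Cdc45, the helicase partner with the second lowest level of the set, had the largest fold of the group in PO1, 4.70 (3.64 to 6.01) and 4.33 (3.77 to 4.96). Its PO2 fold was 1.98 (0.897 to 3.78) at E15.5, on 9 UMIs, and 0.999 (0.599 to 1.57) at E17.5. Mcm5 and Gins2 were 2.66- to 3.56-fold in PO1 and between 0.711- and 0.988-fold in PO2.

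The enzymes that supply deoxynucleotides behaved differently from the helicase in PO2. Rrm2, the small subunit of ribonucleotide reductase, stood at 418.7 and 389.0 CPM in PO1, a fold of 7.93 (7.33 to 8.58) and 5.62 (5.37 to 5.87), and at 82.6 and 130.3 in PO2, a fold of 1.22 (0.867 to 1.66) and 1.39 (1.21 to 1.59). Tyms, thymidylate synthase, stood at 295.8 and 299.6 in PO1 and at 103.3 and 142.6 in PO2, folds of 7.03 and 4.98 and of 1.98 and 1.83. Rrm1, the large subunit of the reductase, stood at 202.2 and 187.3 in PO1 and at 107.4 and 140.8 in PO2, folds of 3.42 and 3.51 and of 1.66 (1.24 to 2.18) and 2.25 (1.96 to 2.57). All 3 had folds above 1 in PO2 at both stages. Summed, this group stood at 293.3 (247.0 to 345.7) and 413.7 (383.0 to 446.2) CPM in PO2, against 152.5 and 178.4 in cells outside PO1 and PO2, whereas the helicase group stood at 188.0 (151.3 to 230.8) and 213.6 (191.7 to 237.4), against 282.1 and 295.1.

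Of the genes that act at the fork and on new chromatin, Pcna, the sliding clamp, and Hells, a chromatin remodeller, were 2.09- to 3.59-fold in PO1 and under 1 in PO2. Hells had 1 UMI in PO2 at E15.5, a fold of 0.0417 (0.00106 to 0.233), and 19 UMIs at E17.5, a fold of 0.391 (0.235 to 0.612). Uhrf1, which carries DNA methylation to the new strand, stayed above the other cells in both clusters, with folds of 4.27 and 3.15 in PO1 and 2.62 and 1.54 in PO2. Esco2, which acetylates cohesin during replication so that sister chromatids hold together (chr14:65819038-65833994), had the largest PO1 fold of all 42 genes. It stood at 168.9 and 110.4 CPM in PO1, a fold of 17.4 (15.1 to 20.02) and 11.2 (10.2 to 12.4), and at 64.0 and 40.8 in PO2, a fold of 4.02 (2.71 to 5.75) and 2.35 (1.81 to 3.01). In the 3 libraries of E17.5 that PO2 fold was 3.68, 1.67 and 2.55, below the limit in library 2. Across the other 13 clusters it ran from 0 UMIs in OG4 to 19.5 CPM in EC4 at E15.5, and from 3.92 in MG3 to 14.7 in EC4 at E17.5, so PO1 and PO2 did not overlap with the rest.

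Set directly against PO1, PO2 was at least 2-fold higher at both stages for 10 of 24 mitotic members, where 1.46% of all genes were, and at least 2-fold lower for 16 of 18 S-phase members, where 4.61% were. The S-phase exceptions were Rrm1, with PO2 to PO1 ratios of 0.531 and 0.752, and Uhrf1, with 0.687 and 0.568. For mitotic members the ratio ran from 1.05 and 1.00 for Top2a to 5.07 for Cenpf at E15.5 and 5.44 for Ccnb1 at E17.5. In each library of E17.5 all 18 S-phase members were lower in PO2 than in PO1, and 23 of 24 mitotic members were higher. The mitotic members were thus unequal in PO2, and they are taken by role below.

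The cyclins and Cdk1 drive entry into mitosis. Ccnb1, cyclin B1 (chr13:100778650-100786570), stood at 217.9 and 156.0 CPM in PO1 and at 892.3 and 848.4 in PO2, a PO2 fold of 23.3 (20.9 to 25.9) and 15.03 (14.2 to 15.9). Ccna2, cyclin A2 (chr3:36564865-36572150), stood at 210.1 and 217.9 in PO1 and at 355.3 and 417.4 in PO2, a PO2 fold of 10.8 (9.17 to 12.7) and 7.45 (6.86 to 8.07). Cyclin B1 thus had a PO2 to PO1 ratio of 4.09 and 5.44, and cyclin A2 one of 1.69 and 1.92. Ccnb2 had a ratio of 3.27 and 3.17, and Cdk1 one of 1.55 and 1.78.

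The mitotic kinases and their partners had PO2 to PO1 ratios between 1.26 and 2.79. Birc5, survivin, the subunit of the chromosomal passenger complex that holds Aurkb at the centromere, had the highest level of the mitotic set at E17.5, with 178.8 CPM over labelled cells, after 107.6 at E15.5. It stood at 591.0 and 592.8 in PO1 and at 1002 and 958.3 in PO2. Plk1, polo-like kinase 1 (chr7:122159439-122169873), stood at 94.02 and 97.5 in PO1 and at 183.8 and 271.7 in PO2. Bub1 and Bub1b, kinases of the spindle checkpoint, were among the 3 lowest members. Bub1 stood at 78.8 and 51.7 in PO1 and at 119.8 and 70.4 in PO2, and Bub1b (chr2:118598211-118641591) at 50.9 and 47.9 in PO1 and at 97.1 and 103.7 in PO2. Aurka and Aurkb, the Aurora kinases, had PO2 folds of 13.9 and 11.1 and of 10.8 and 6.87.

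Cdc20, Cenpa and Cenpf, with cyclin B1, had the 4 largest PO2 to PO1 ratios at both stages, between 4.09 and 5.44. Cdc20, the activator of the APC/C, had PO2 folds of 18.7 and 13.6 against PO1 folds of 3.77 and 2.26, and Ube2c, its ubiquitin-conjugating enzyme, 18.6 and 11.3 against 4.88 and 3.30. Cdca3 had 11.3 and 5.88 against 5.49 and 3.22. Cenpf, a large kinetochore protein of late G2 and mitosis, stood at 274.7 and 169.4 CPM in PO1 and at 1392 and 849.0 in PO2, a PO2 fold of 22.8 (21.0 to 24.8) and 15.1 (14.2 to 16.0), and Cenpe, a kinetochore motor, had 17.6 and 10.4. The PO2 to PO1 ratio of Cenpe was lower, 3.27 and 2.92.

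Cenpa, the histone H3 variant that marks centromeres (chr5:30666777-30674830), was the only mitotic member to miss the limit in PO1. It stood at 182.2 and 187.2 CPM in PO1, a fold of 2.44 (2.19 to 2.72) and 1.48 (1.40 to 1.57), and at 817.9 and 882.4 in PO2, a fold of 11.4 (10.3 to 12.7) and 7.48 (7.08 to 7.91). At E17.5 OG2 had more Cenpa than PO1, with 314.5 CPM; at E15.5 OG2 had 142.8 and MG1, with 28 cells, had the highest level outside PO1 and PO2, with 160.3.

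Of the spindle genes, Kif11, the motor that pushes the spindle poles apart and a member of low level, stood at 88.6 and 67.9 CPM in PO1 and at 115.7 and 110.5 in PO2. Prc1, which bundles midzone microtubules for cytokinesis (chr7:80294450-80316259), stood at 380.5 and 260.8 in PO1 and at 758.0 and 551.4 in PO2. Tpx2, Hmmr, Kif23 and Nusap1, which organize the spindle and its midzone, had PO2 folds of 6.49 to 15.3 and PO1 folds of 3.87 to 8.35. Top2a, topoisomerase II alpha, which untangles and condenses chromosomes (chr11:98992943-99024189), was the member most alike in both clusters: 968.1 and 721.4 in PO1, 1012 and 723.0 in PO2. Mki67, which coats mitotic chromosomes and is the usual label of cycling cells, stood at 297.7 and 194.6 in PO1 and at 499.8 and 266.7 in PO2.

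Each cell also carries a called phase (G1, S or G2M), scored on the gene lists of Seurat. Those lists, not checked here, are taken to hold 33 of the 42 members, so only the other 9 are taken as unused by the call. Of labelled cells, 67.7% and 65.2% were called G1, 21.7% and 19.7% S, and 10.6% and 15.1% G2M. Cells called S and G2M were deeper: medians were 7988, 10104 and 10638 UMIs for G1, S and G2M at E15.5, then 11021, 14851 and 17219 at E17.5, and the part of depth in the calls was not tested. In PO1, 38.2% and 31.1% of cells were called S and 61.8% and 68.3% G2M. In PO2, 35 of 35 and 76 of 76 cells were called G2M, with lower 95% limits of 90.0% and 95.3%.

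The 9 unscored genes followed the phase calls. Summed, the 4 unscored S-phase genes stood at 44.6, 284.9 and 186.7 CPM in G1, S and G2M at E15.5, then at 48.2, 318.7 and 177.8 at E17.5. The S to G1 ratio was 6.39 (6.002 to 6.82) and 6.61, and the G2M to G1 ratio 4.19 and 3.69. The 5 unscored mitotic genes stood at 21.9, 104.8 and 1053 CPM at E15.5, then at 29.7, 125.4 and 991.8 at E17.5. Their G2M to G1 ratio was 48.0 (44.3 to 52.0) and 33.4 (31.8 to 35.2), and their S to G1 ratio 4.77 and 4.23. Over all 42, with the scored genes as a description only, 18 of 18 S-phase and 20 of 24 mitotic members were at least 2-fold higher in S than in G1 (3.35% of all genes), and 15 of 18 and 24 of 24 in G2M than in G1 (4.6%). The mitotic genes short of the limit in S were Ccnb2, Cdc20, Cdca3 and Cenpa; the S-phase genes short of it in G2M were Mcm2, Mcm4 and Mcm6.

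**Figure D3:**
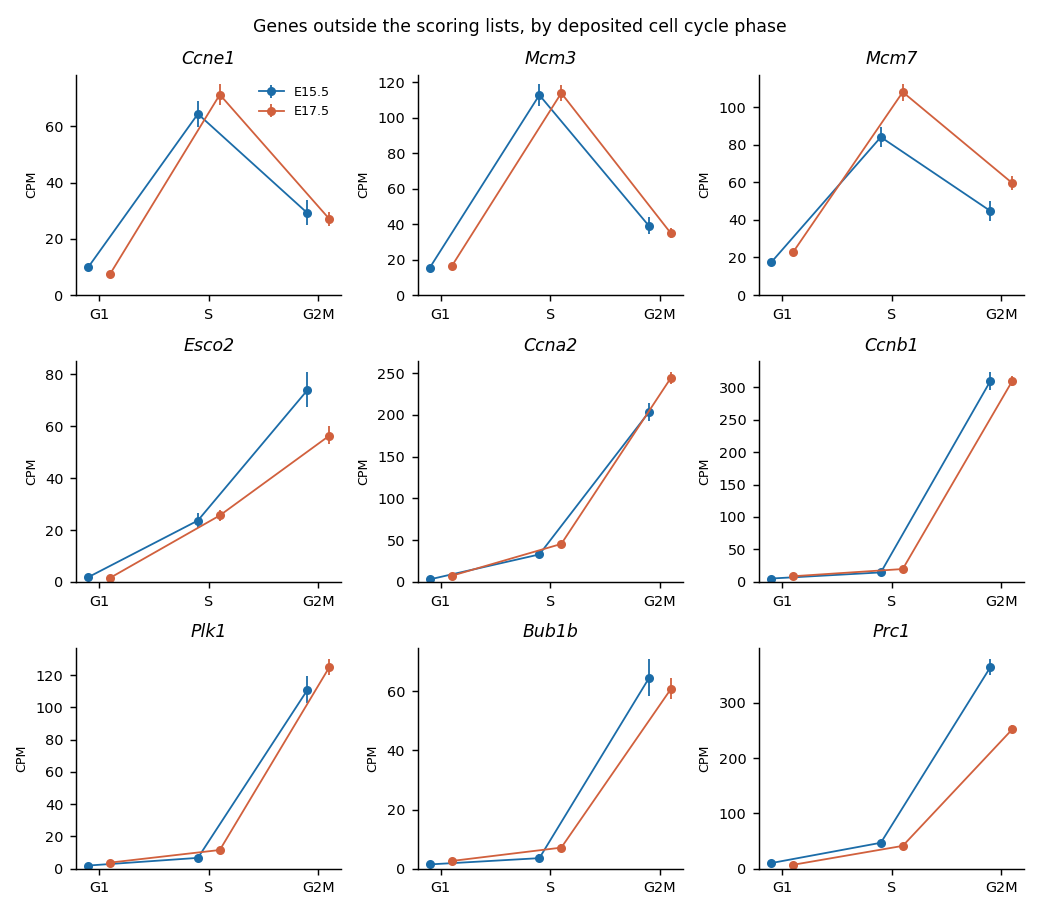
CPM (linear axis from 0) of the 9 members outside the scoring lists in cells called G1, S and G2M, at E15.5 and E17.5, with 95% counting intervals. Mcm3, Mcm7 and Ccne1 peak in S (113, 84.0 and 64.4 CPM at E15.5), while Esco2 and the 5 mitotic genes peak in G2M.

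Ccne1 stood at 9.93, 64.4 and 29.1 CPM in G1, S and G2M at E15.5, then at 7.55, 71.3 and 27.0 at E17.5. Mcm3 stood at 15.4, 112.8 and 39.0, then 16.2, 113.9 and 34.8, and Mcm7 at 17.4, 84.0 and 44.7, then 22.9, 108.0 and 59.5. These 3 genes were highest in S at both stages, with no overlap of intervals. Esco2 was not: it stood at 1.83, 23.7 and 74.0 CPM at E15.5, then at 1.58, 25.6 and 56.4 at E17.5. Its G2M level was 3.13-fold and 2.20-fold its S level, so it lay with the mitotic genes in this respect.

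Among the unscored mitotic genes, Ccna2 stood at 3.01, 32.9 and 203.3 CPM in G1, S and G2M at E15.5, then at 7.32, 45.5 and 244.2 at E17.5. Ccnb1 stood at 5.19, 14.6 and 309.7, then 8.72, 19.8 and 309.8. Cyclin A2 in S was thus 10.9-fold and 6.21-fold its G1 level, and cyclin B1 2.81-fold and 2.27-fold. Prc1 stood at 10.3, 47.0 and 364.4, then 7.19, 41.4 and 252.1. Plk1 stood at 1.99, 6.75 and 110.9, then 3.82, 11.6 and 125.0, and Bub1b at 1.47, 3.59 and 64.4, then 2.63, 7.14 and 60.7. Plk1 and Bub1b, like cyclin B1, were 2.27- to 3.39-fold in S and at least 23.1-fold in G2M.

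By role, with scored genes included, the initiation group had the lowest G2M level beside its S level: 19.8, 189.3 and 53.3 CPM in G1, S and G2M at E15.5. The helicase group stood at 134.3, 734.2 and 306.8. The deoxynucleotide group was the exception, with 61.5, 379.7 and 431.7 at E15.5, then 64.7, 450.9 and 503.5 at E17.5, at least as high in G2M as in S. Its G2M to S ratio was 1.21 and 1.34 for Rrm1, 1.02 and 1.03 for Rrm2 and 1.22 and 1.09 for Tyms.

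PO1 was also higher within the cells called S, for both sets. Within those called G2M, its mitotic level was above that of the summed cells outside PO1 and PO2. It was below that of several single clusters. For the S-phase set, PO1 was highest among clusters with at least 20 G2M-called cells at both stages. Among cells called S, PO1 held 3643 and 2817 S-phase CPM, against 1538 and 1604 in all other S-called cells, and 3377 and 2798 mitotic CPM against 505.0 and 628.2. Over clusters outside PO1 and PO2 with at least 20 S-called cells, the S-phase set ran from 1186 (LIG) to 2274 (OG2) at E15.5 and from 1344 (EC1) to 1824 (OG4) at E17.5, all below PO1. Among cells called G2M, PO1 held 7493 and 6013 mitotic CPM, against 6071 and 5527 in cells outside PO1 and PO2. Among clusters with at least 20 such cells, EC1, LIG and EC3 lay above PO1 at E15.5, up to 8087 in EC3. At E17.5 EC1, EC4, LIG, EC2 and OG1 did, up to 7494 in OG1. PO2, at 13839 and 11621, was above every other cluster so counted.

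Clusters with fewer than 20 G2M-called cells were not ranked, among them OG4 at E15.5 with 15. Of those ranked, OG2 had the lowest mitotic level in G2M-called cells, 3750 (3621 to 3884) and 4558 CPM. Yet 19.9% and 39.1% of its cells were called G2M. This contrast was taken up after the values were seen, and 19 of the 24 mitotic genes entered the call, so it is a description. The 97 and 204 G2M-called OG2 cells were set beside the 326 and 506 G2M-called cells of the other clusters outside PO1 and PO2. Top2a stood at 114.1 and 145.8 CPM in OG2 and at 611.2 and 428.1 in the others, a ratio of 0.187 (0.1505 to 0.229) and 0.341 (0.307 to 0.377). Cdk1 had a ratio of 0.191 and 0.329, Prc1 of 0.205 and 0.398, Nusap1 of 0.217 and 0.351, Aurkb of 0.260 and 0.405, Ube2c of 0.266 and 0.426 and Esco2 of 0.126 and 0.202. These genes were low in OG2 at both stages.

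Ccnb2 and Cenpa were instead higher in OG2 than in these other clusters summed. Ccnb2 had a ratio of 1.30 (1.15 to 1.48) and 1.34 (1.24 to 1.45), and Cenpa, at 588.2 and 725.1 CPM in OG2 and 505.6 and 562.0 in the others, one of 1.16 (1.05 to 1.29) and 1.29 (1.23 to 1.36). Birc5 had 0.913 (0.821 to 1.01) and 0.948, and Cdc20 lay on opposite sides of 1, with 0.854 (0.733 to 0.992) and 1.12 (1.05 to 1.21). Ccnb2 was also the only mitotic member at least 2-fold higher in OG2 as a whole, with 2.21 and 2.65, where 0.239% of all genes were. OG2 cells called G2M thus held 5.16 (4.14 to 6.49) and 4.97 (4.48 to 5.54) Cenpa UMIs per Top2a UMI, against 0.827 and 1.31 in the other clusters, 0.245 and 0.315 in PO1 and 0.808 and 1.22 in PO2. In the 3 libraries of E17.5 the OG2 values were 3.202, 5.12 and 5.86, and those of the other clusters 1.40, 1.20 and 1.42. OG2 lay above the others in each library.

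**Figure D4:**
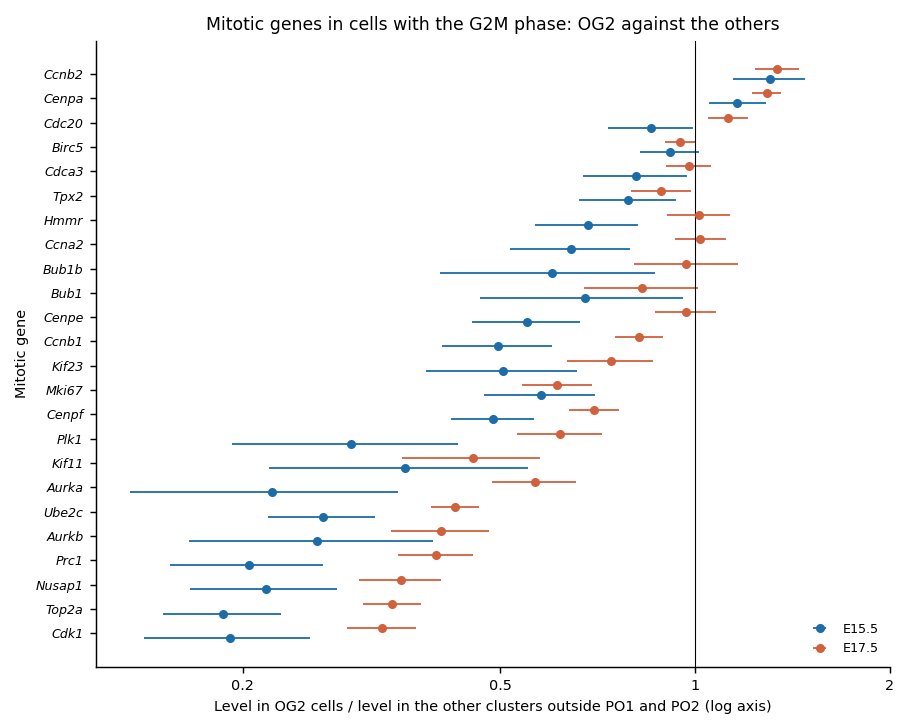
Level of each mitotic member in G2M-called OG2 cells over G2M-called cells of the other clusters outside PO1 and PO2 (log axis), at E15.5 and E17.5, with 95% counting intervals. Top2a, Cdk1, Prc1 and Nusap1 lie lowest (0.187 to 0.398), and Ccnb2 and Cenpa lie above 1 at both stages.

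Depth differed between these cells, with medians of 7346 and 12865 UMIs in OG2 and 10677 and 16486 in the others, so each cell was also thinned at random to 3000 UMIs. After thinning, 66.0% of OG2 cells at E15.5 (64 of 97) and, at E17.5, 61.3% (125 of 204), held Cenpa and no Top2a, against 31.0% and 36.0% of the others and 4.72% and 2.02% of PO1. The G2M score of the OG2 cells was also lower, with medians of 0.224 and 0.383 against 0.461 and 0.563. Median mitochondrial shares were 1.60% and 2.38% in OG2 and 1.62% and 2.28% in the others. Of single clusters, EC2 came nearest to OG2. In EC2, 41.2% (24.65 to 59.3) and 49.3% (37.0 to 61.6) of thinned cells held Cenpa and no Top2a. Those intervals overlap those of OG2, 55.7 to 75.3 and 54.2 to 68.0. Cenpa with or without Top2a was in 82.35% and 87.0% of EC2 cells, against 80.4% and 82.35% in OG2. Ccnb2 was in 73.5% and 69.6% of EC2 cells, against 68.0% and 62.75% in OG2. Most other clusters lay below OG2 for both genes.

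Mitotic RNA was also counted cell by cell at equal depth. After thinning to 3000 UMIs, 100% of PO1 cells at E15.5, then 98.9% at E17.5, and 100% of PO2 cells at both, held at least 3 mitotic UMIs. Outside PO1 and PO2 it was 13.0% (12.1 to 14.0, exact binomial; 647 of 4969 cells, with 158 shallower cells left out) at E15.5, then 18.6% (17.7 to 19.6; 1190 of 6391) at E17.5. Without thinning the shares were 30.4% and 54.9%. OG2 had 29.3% (25.3 to 33.6) and 52.7% (48.3 to 57.0), OG3 36.8% and 19.2%, OG4 10.8% (6.63 to 16.3) and 26.0% (22.3 to 30.0), and MG3 the lowest, 6.03% and 3.64%. For at least 3 UMIs of the S-phase set, PO1 had 91.8% and 87.6% and PO2 35.5% at E17.5 and 14 of 35 cells at E15.5.

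Free RNA can give such UMIs to cells that do not divide, and it was not measured here. Cells assumed to lack mitotic RNA were therefore sought among barcodes without a label. At E17.5, 94 neuron-like cells (at least 2 of Neurod1, Cplx3 and Otx2 with a UMI; median 12606 UMIs) had at least 3 mitotic UMIs in 3.19% (0.663 to 9.05), and their mitotic level was 361.1 CPM. MG3 at E17.5, with 3.64% and 317.5 CPM, lay near those values. Whether the neuron-like cells divide was not tested. No such cells were used at E15.5, where 749 barcodes under 1000 UMIs held mitotic RNA at 1465 CPM. The osteoclast-like cells, 157 and 128, did not serve: 57.3% and 44.9% of them held at least 3 mitotic UMIs.

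**Figure D5:**
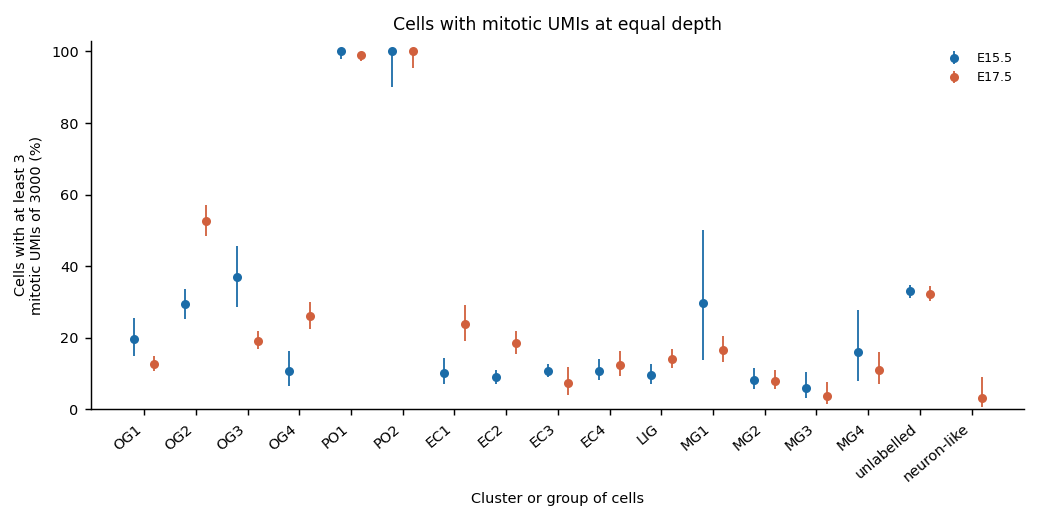
Percent of cells in each cluster with at least 3 mitotic UMIs after thinning to 3000 UMIs a cell, at E15.5 and E17.5, with exact binomial 95% intervals. PO1 and PO2 lie at 98.9% or above, OG2 lies above the other clusters outside them at E17.5 (52.7%), and MG3 is lowest (6.03% and 3.64%).

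Over all labelled cells the mitotic set differed more between the stages than the S-phase set, while the makeup of the cells also differed. The share of EC3 among them was 22.2% at E15.5, then 2.84%, that of OG1 4.89% and 14.8%, and that of PO1 with PO2 3.90% and 6.43%. Over labelled cells the S-phase set stood at 703.0 CPM at E15.5, then 747.8 at E17.5, a ratio of 1.06 (1.05 to 1.08), and the mitotic set at 1175 and 1552, a ratio of 1.32 (1.31 to 1.33). For the 3 libraries of E17.5 the ratios were 1.02, 1.12 and 1.03 for the S-phase set and 1.16, 1.39 and 1.32 for the mitotic set. Within clusters the mitotic ratio was below 1 in 10 of 15. The parts of cell makeup and of the count runs in these ratios were not tested. Of the 42 members only Cdca3, a trigger of mitotic entry, was at least 2-fold higher at E17.5, with a ratio of 2.11 (2.00 to 2.22), where 4.88% of all genes were; 0 members were at least 2-fold lower, where 9.88% were. The lowest ratio was that of Hells, 0.605 (0.573 to 0.640).

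Within clusters the stages differed in both directions. The mitotic set in OG2 was 1.79-fold (1.74 to 1.86) higher at E17.5, with 1.70 to 1.93 in the 3 libraries, while the S-phase set was 0.809-fold (0.779 to 0.840). In OG4 the S-phase set was 2.77-fold (2.48 to 3.12) and the mitotic set 2.55-fold (2.39 to 2.73). At E15.5 OG4 was lowest in both sets, though for the mitotic set its interval overlapped that of EC2. In EC2 the mitotic set was 2.27-fold (2.19 to 2.35). In EC3 the ratios were 0.630 and 0.503, but the 3 libraries gave 1.03, 0.578 and 0.505 for the S-phase set, with the direction turned in library 1, and 0.207, 0.703 and 0.372 for the mitotic set. In OG3 the ratios were 0.733 and 0.620, and in MG3 the mitotic set was 0.493-fold. In PO1 the ratios were 0.843 and 0.824, and in PO2 1.18 and 0.840. The intervals leave out differences between embryos, which the 1 library of E15.5 cannot show.

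Members were also counted outside PO1 and PO2. In MG3, 11 of 18 S-phase and 9 of 24 mitotic members were at least 2-fold lower (8.06% of all genes), in MG2 6 and 3 (5.88%), and in MG4 3 and 6 (5.65%). In MG1, 3 mitotic members were lower (4.42%), in EC2 1 of each set (5.46%) and in EC3 1 S-phase member (2.99%). The MG1 and MG4 counts rest on few UMIs per member at E15.5. MG1 had 28 cells and 297 mitotic UMIs there, with a mitotic set fold of 0.965 (0.858 to 1.08), and MG4 had 64 cells and 195 S-phase UMIs. In OG4, 4 S-phase members were lower, where 15.3% of all genes were. In OG2 the 1 member lower was Esco2, with 0.483 and 0.426 (6.29%).

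Other genes of the cycle were read from 9 lists of known function. Of all 12150 genes, 3.96% were at least 2-fold higher in PO1 and 3.05% in PO2, the shares to set beside each list count below. Of 13 origin licensing genes 6 were at least 2-fold higher in PO1 and 1 in PO2; Orc6 stood at 132.7 and 92.0 CPM in PO1 and at 39.2 and 35.8 in PO2. Of 22 genes for polymerases, the clamp loader and the lagging strand, 18 were higher in PO1 and 1 in PO2; Lig1, the ligase that joins lagging strand fragments, had folds of 4.99 and 3.502 in PO1 and of 0.882 and 0.813 in PO2. Dut and Rfc2 were alike, with 2.41 to 3.497 in PO1 and 0.814 to 1.22 in PO2. The list median for polymerases was 3.47 and 2.90 in PO1 and 0.924 and 0.988 in PO2.

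Of 21 kinetochore and checkpoint genes 21 were higher in PO1 and 20 in PO2, and of 22 kinesin and cytokinesis genes 22 in both. Tacc3, which stabilizes spindle microtubules, had folds of 5.91 and 4.09 in PO1 and 11.2 and 7.23 in PO2, and Knstrn, a spindle and kinetochore protein, 2.71 and 2.12 and then 11.1 and 7.30. Of 18 cohesin and condensin genes 11 were higher in each; Smc4, of condensin, had 5.53 and 4.11 in PO1 and 7.08 and 5.09 in PO2, and Smc3, of cohesin, 1.77 and 1.85 and then 1.05 and 1.16. Of 15 subunits of the APC/C itself, 3 were higher in PO1 and 2 in PO2; Anapc5 had 1.38 and 1.17, then 1.42 and 1.18.

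Regulators of G1 were mixed. Of 6 G1 cyclins and kinases 1 was higher in PO1 and 0 in PO2; Ccnd2, cyclin D2, had folds of 0.555 and 0.749 in PO1 and of 0.559 and 0.483 in PO2. Of 17 E2F and pocket protein genes 7 were higher in PO1 and 4 in PO2, and E2f1 was lower in PO2, with 0.124 and 0.497. Of 7 Cdk inhibitors 5 had enough UMIs: Cdkn2c (p18) was higher in both, with 7.42 and 4.21 in PO1 and 9.95 and 5.77 in PO2, and Cdkn2d (p19), with 3.71 and 3.31, then 4.47 and 3.74. Cdkn1c (p57), which holds differentiating cells out of the cycle, was lower in both, at 2022 and 1186 CPM in PO1 and 1419 and 1067 in PO2 against 5172 and 2312 over labelled cells, with folds of 0.381 and 0.493 in PO1 and 0.272 and 0.457 in PO2. Cdkn1a (p21) had 1.68 and 1.14 in PO1 and 1.05 and 0.709 in PO2.

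Over the 15 clusters, the genes outside the set whose log2 level was most like that of the S-phase set were Lig1, Exo1, Chaf1a, Apitd1, Rpa2, Tipin, Prim1, Atad2, Rfc2 and Nap1l1, with mean Pearson correlations over the 2 stages from 0.9298 to 0.9650. Most like the mitotic set were Cks2, Cdca8, Fam64a, Ckap2l, Smc4, Racgap1, Casc5, Dlgap5, Depdc1a and Tacc3, from 0.974 to 0.993. The 15 points of a stage share its libraries and their depth. Cks2, a partner of Cdk1, stood at 638.5 and 576.7 CPM in PO1 and at 1084 and 1167 in PO2.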

How the data were processed

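RNA from single cells of the coronal suture was measured with 10x Chromium 3′ libraries, 1 at E15.5 and 3 at E17.5 (separately sorted batches from 2 litters, deposited as 1 sample and told apart by barcode suffix). Per the study's methods, reads were aligned and counted by the authors with Cell Ranger against mm10 (GRCm38), and the deposited counts are UMIs per gene and barcode, not normalized (the E15.5 matrix header names 3.1.0, later than the version in the methods, and no E15.5 cell total matches the table of cells). The deposited table of cells, made with Seurat 3.2.0, gives the cluster, the phase, cell cycle scores (S and G2M, relative to control genes, by the authors), total UMI counts and the percent of mitochondrial, Hbb and Hba UMIs per cell, as the authors computed them. FastQC 0.11.7 and MultiQC 0.9 are named in the submitters' processing notes.

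Here UMIs of labelled cells were summed per cluster, phase and stage (pandas 2.3.3, numpy 2.4.6 and scipy 1.17.1 under Python 3.11.15; figures by matplotlib 3.10.9, Scrublet in scanpy 1.11.5), divided by all UMIs and given per 1000000 (CPM). Fold limits were 2-fold at both stages; genes needed 50 UMIs at each. Intervals are 95%, cover counting error only, and PCR duplicates are removed by UMIs. Thinning to 3000 UMIs used a fixed seed. Doublets were kept; an alternative left out those whose Scrublet score reached the 94th percentile within their suffix. Of labelled E15.5 cells, 93 lay outside the limits of the study (1000 UMIs, 1000 genes, 7.5% mitochondrial, 3% Hbb or Hba) and were kept. The scripts were tested on simulated counts. No p-value was computed. All 42 members are accounted for; given in full are, per set, the 3 highest and 3 lowest by level, the 9 outside the scoring lists, and those short of the 2-fold limit in both PO1 and PO2; of other lists up to 4 examples; the 10 genes most alike per set by log2(CPM + 1). Membership of the scoring lists was taken from general knowledge of Seurat. The members and lists were chosen with earlier results of these data known. Alternatives are given in the closing section.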

Additional observations from a re-analysis of the deposited data

Results flagged for a closer look

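Several results lay on opposite sides of 1 at the 2 stages, as folds over the other labelled cells. In no case was the difference between stages tested, since E15.5 is 1 library.

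The S-phase set in OG3 was 1.31-fold at E15.5, then 0.884-fold at E17.5, in MG1 1.05-fold (28 cells) and 0.715-fold, in EC2 0.945-fold and 1.01-fold, and in PO2 0.925-fold and 1.02-fold; the intervals of PO2 include 1 at both stages and that of EC2 includes 1 at E17.5. The mitotic set in OG3 was 1.28-fold (1.22 to 1.34) at E15.5, then 0.558-fold (0.548 to 0.569) at E17.5, and in OG2 0.940-fold (0.912 to 0.969) and 1.32-fold (1.30 to 1.34). The OG2 value at E15.5 was 1.12-fold as a mean over cells and 1.11-fold at equal depth, on the same side of 1 as at E17.5. Cdc45 in PO2 was 1.98-fold (0.897 to 3.78) and 0.999-fold (0.599 to 1.57), both intervals including 1.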

How the results depend on the processing

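No paired analysis was possible because E15.5 is 1 library and shares none with E17.5; within E17.5, clusters were compared in each of its 3 libraries. Of 167 values of the main comparisons under alternatives, 98 stayed within their counting interval (counts within 1.5 times) and 69 moved past it. A change of direction was called only for ratios whose main interval left out 1, and 0 of these values were so called. The cause of the moves was not tested. Of 1743 values of single members, clusters and stages under alternatives, 1100 stayed, 627 moved and 16 changed direction. Leaving out cells outside the limits of the study moved none of the main values.

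In PO1 the S-phase fold at E15.5 was 4.61 as a mean over cells, 3.67 without the 50 most abundant genes in the denominator, 4.68 thinned and 3.55 without Rrm2, the most abundant member; at E17.5 the same 4 settings gave 3.79, 3.16, 3.88 and 2.97, leaving out doublets gave 3.43, and libraries 1, 2 and 3 gave 3.39, 3.13 and 3.35. The PO1 mitotic fold was 7.81 as a mean over cells, 5.86 without the 50 genes, 7.81 thinned and 6.41 without doublets at E15.5, and 5.003, 3.82, 4.95 and 4.31 at the later stage, with 3.77 in library 2 and 4.07 in library 3. In PO2 the mitotic fold was 16.6 as a mean over cells, 12.3 without the 50 genes and 16.2 thinned at E15.5; at E17.5 it was 11.0, 8.04 and 11.0, with 8.99 without doublets, 9.38, 8.01 and 8.61 in libraries 1 to 3 and 8.83 without the most abundant member. The PO2 S-phase fold at E17.5 was 1.21 as a mean over cells, 1.14 thinned and 1.10 in library 1. The PO2 to PO1 ratio of mitotic to S-phase UMIs at E17.5 was 7.18 thinned and 6.77 in library 1.

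For unscored mitotic genes the S to G1 ratio was 4.28 (E15.5) and 3.70 (E17.5) as a mean over cells, 3.61 thinned at E17.5, and 5.25 and 3.88 in libraries 1 and 2; the G2M to G1 ratio was 41.3 as a mean over cells and 39.6 thinned at E15.5, and 31.7 as a mean over cells, 37.7 in library 1 and 31.6 in library 3 at E17.5. For unscored S-phase genes the G2M to G1 ratio was 3.93 in library 1. The E17.5 to E15.5 ratio of the S-phase set was 1.04 as a mean over cells, 1.03 thinned, 1.04 without doublets, 1.02, 1.12 and 1.03 in libraries 1 to 3 and 1.03 without Rrm2; that of the mitotic set was 1.34 thinned, 1.27 without doublets, 1.16 and 1.39 in libraries 1 and 2 and 1.29 without its most abundant member.

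Of the main values, those that moved by over 1.5 times were the count of S-phase members higher in PO2, 4 at a limit of 1.5-fold and 3 as a mean over cells in place of 1, and the share of cells outside PO1 and PO2 with mitotic UMIs, 21.2% and 29.0% for at least 2 UMIs. That share was 8.79% and 12.7% for at least 5 UMIs and 19.3% and 27.0% at 5000 UMIs. Of the values of single members, clusters and stages, 56 moved by over 1.5 times.

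The OG2 mitotic fold at E15.5 changed direction, to 1.12 as a mean over cells and 1.11 thinned, as did at E17.5 the OG1 S-phase fold in library 2 (0.962) and the mitotic folds of EC1 (1.22) and EC2 (1.08) in library 1. Between stages, the S-phase ratio changed direction in EC1 (0.945 thinned, 0.983 without doublets, 0.939 in library 3), EC3 (1.03 in library 1), LIG (1.15 in library 1), MG2 (1.15 in library 2) and MG3 (1.03 thinned, 1.15 in library 1), and the mitotic ratio in EC1 (0.969 in library 3), MG2 (1.01 in library 2) and MG4 (1.17 in library 3). Depth limits PO2 at E15.5, where 35 cells gave 315 S-phase UMIs in all.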
